A study of Arabidopsis thaliana with 12 samples.

Results

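AT4G38040 and AT3G57630 are Arabidopsis thaliana genes of the exostosin family of glycosyltransferases, and each was read by 1 array feature annotated with that gene alone. These 2 features were taken from 3439 features on the array, of which 692 carried exactly 1 gene. They were chosen because their signal was listed at 0 on most arrays of the laf6 mutant, so their difference between the genotypes is described here without a test. Total RNA was measured on 12 arrays, 6 from dark-adapted laf6 plants and 6 from dark-adapted wild-type (WT) plants, both of the Landsberg ecotype. The labels describe laf6 as a mutant without atABC1, which they call a transporter and which is a plastid protein now named SUFB. They give no allele, age or tissue, and they do not say that the arrays of a group came from separate plants. P-values below therefore weigh a difference against the spread between arrays, which may be technical.

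Exostosin-family enzymes of plants are membrane proteins of the secretory pathway, named after the animal exostosins that build heparan sulfate. Several characterised members work in the Golgi apparatus, where they attach single sugars to growing chains such as xyloglucan, xylan, pectin or the arabinose side chains of extensins, which are structural proteins of the cell wall. The products leave the cell by vesicle transport and become part of the wall.

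Values are deposited intensities on a linear scale that runs from 0 to about 100 on each array and has no absolute unit. A value of 0 is a listed value and does not show how far a feature lay below the others. Of all values, 15.7% were listed at 0. The laf6 arrays had 491 to 674 features at 0 and median intensities of 0.178 to 0.202, against 447 to 540 features at 0 and medians of 0.218 to 0.289 on the WT arrays. Because these array-wide measures move with genotype, they are set beside the gene values below. Fewer cells that express a gene and less RNA per cell cannot be told apart in such samples.

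AT4G38040 had no value above 0 on any of the 6 laf6 arrays and gave a signal on 5 of 6 WT arrays. Its deposited intensity was 0 on laf6 replicates 1 to 6, against 0.166, 0, 0.353, 0.325, 0.198 and 0.228 on WT replicates 1 to 6. The groups overlapped only through WT replicate 2, which read 0. No fold change is given because the laf6 arrays held no value above 0. The 5 WT values above 0 differed by up to 2.13 times among themselves, with replicates 3 and 4 the highest. The gene was of middling brightness in WT: its median of 0.213 lay above that of 45.9% of all features. On the WT arrays with a signal it ranked between the 38.96th percentile of the array's features, on replicate 1, and the 56.99th, on replicate 3.

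AT3G57630 was at 0 on 4 of 6 laf6 arrays and gave a signal on all 6 WT arrays. On laf6 replicates 1 to 6 the deposited intensity was 0, 0, 0, 0, 0.0386 and 0.00316, against 0.133, 0.142, 0.106, 0.248, 0.110 and 0.111 on WT replicates 1 to 6. The groups did not overlap. The lowest WT array lay 2.75 times above the highest laf6 array as deposited, and 2.11 times above it after quantile normalization between arrays. Its WT median of 0.122 lay above that of 32.2% of features. By rank, laf6 reached at most the 21.7th percentile of an array and WT ran from the 28.8th to the 45.6th. Quantile normalization follows ranks, so these restate the separation of the normalized values and are no separate support for it.

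**Figure D1:**
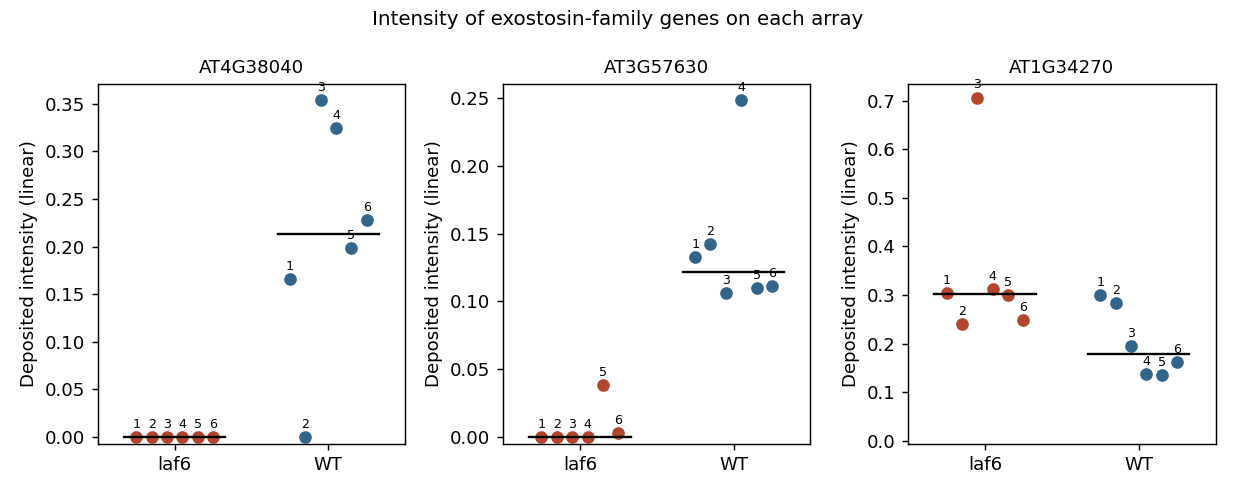
Deposited intensity (linear scale, no absolute unit) on each array for AT4G38040, AT3G57630 and a further exostosin-family gene, AT1G34270. Points are arrays labelled by replicate number and lines are group medians (6 arrays each). AT4G38040 and AT3G57630 lie at or near 0 on the laf6 arrays, while AT1G34270 has a laf6 median of 0.303 against 0.179 in WT.

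Within WT the AT3G57630 signal was steady for a feature this dim. The SD of its log2 normalized intensity over the 6 WT arrays was 0.39, against a median SD of 0.67 among the 464 features that had a signal on every WT array and a WT median within 1.5 times its own. Replicate 4 was the highest WT array for AT3G57630 and the second highest for AT4G38040. The log2 difference between the group medians of AT3G57630 was -4.22 (laf6 minus WT). That value is set largely by the floor of 0.00597 to which zeros were raised, because the laf6 median stood at the floor. It was -1.95 with a higher floor, at the 5th percentile of positive values, and -1.69 with an offset of 0.05 added before log2. No floor or offset could reverse the sign, because every laf6 value lay below every WT value. Only the size was open to these choices.

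The number of features at 0 on an array went with these signals only in part. The laf6 arrays on which AT3G57630 was above 0, replicates 5 and 6, had the fewest features at 0 of the 6 laf6 arrays, 532 and 491. Those counts fall inside the WT range, and AT3G57630 stood at 0.0386 and 0.00316 there and at 0.106 or more on every WT array. The median intensities of laf6 replicates 5 and 6, 0.186 and 0.199, were still below the lowest WT median of 0.218. AT4G38040 was at 0 on both of these laf6 arrays. WT replicate 2, on which AT4G38040 was at 0, had 505 features at 0, the second highest count in WT after the 540 of replicate 1, on which the gene read 0.166. The part of array-wide dimness in the differences of AT4G38040 and AT3G57630 was not tested.

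**Figure D2:**
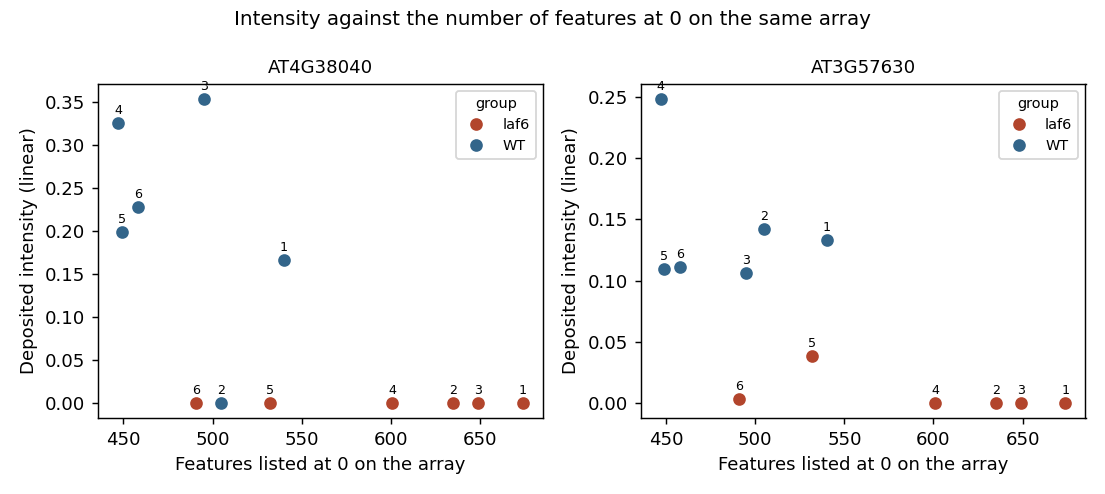
Deposited intensity of AT4G38040 and AT3G57630 (vertical axes, linear) against the number of features listed at 0 on the same array (horizontal axes). Points are arrays labelled by replicate number, red for laf6 and blue for WT. The laf6 replicates 5 and 6, with 532 and 491 features at 0, lie among the WT arrays on the horizontal axis and below every WT array for AT3G57630. Their median intensities, 0.186 and 0.199, were below the lowest WT median of 0.218.

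Losses of signal like these were uncommon on the array and ran mostly in one direction. Both exostosin genes were at 0 on at least 4 laf6 arrays and on at most 1 WT array, a pattern held by 71 of 3439 features (2.06%) and by 16 of the 692 single-gene features (2.31%). The reverse pattern, at 0 on at least 4 WT arrays and at most 1 laf6 array, was held by 16 features (0.465%). A total of 16 features (0.465%) were at 0 on all 6 laf6 arrays and at most 1 WT array, as AT4G38040 was, against 2 (0.0582%) for the reverse. Among 924 features with a WT median of 0.1 to 0.3 and at most 1 WT array at 0, which is the brightness of the exostosin genes, 24 (2.60%) were at 0 on at least 4 laf6 arrays. For 1066 features chosen the same way on the laf6 arrays, 5 (0.469%) were at 0 on at least 4 WT arrays. Every laf6 array lay below every WT array, as it did for AT3G57630, in 587 features as deposited (17.1%), so that separation alone was common. The 2 directions are not like for like, because the median count of features at 0 was 618 on laf6 arrays and 476.5 on WT arrays. Median intensities were also lower on laf6 arrays, so the same window of 0.1 to 0.3 took in relatively brighter features there. What lies behind the difference between the directions was not tested. These shares are given as background to the values of the pair.

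**Figure D3:**
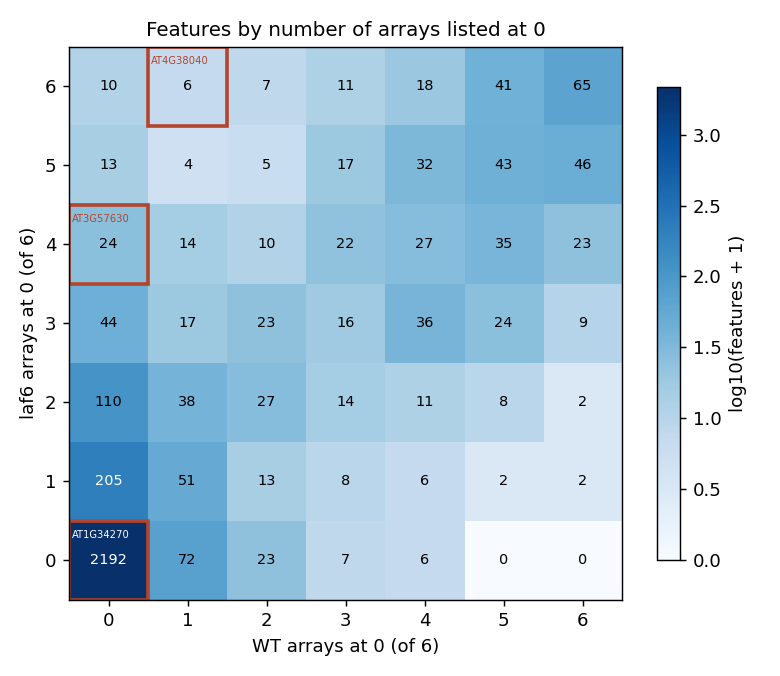
Number of features for each combination of laf6 arrays at 0 (vertical axis, of 6) and WT arrays at 0 (horizontal axis, of 6). Shading is log10 of the number plus 1, and outlined cells hold the named genes. AT4G38040 is 1 of 6 features in its cell and AT3G57630 1 of 24, while AT1G34270 is among the 2192 features with no array at 0.

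Few single-gene features were at 0 on the same arrays. Likeness was counted as the number of the 12 arrays on which a feature and the gene were both at 0 or both above 0. This count largely repeats the pattern by which the pair was chosen and does not compare intensities. For AT4G38040, 1 other feature agreed on all 12 arrays and it had no single gene name. The closest single-gene feature was chr31, named for chromatin remodelling, which agreed on 11. Its median was 0 in laf6, with every array at 0, and 0.672 in WT. AT2G06040, AT2G24810, AT4G03150 and AT3G56810 agreed on 10 arrays, as 8 single-gene features did. AT3G56810 was also at 0 on 3 WT arrays, with a WT median of 0.0029. For AT3G57630, 8 features agreed on all 12 arrays, among them 1 single-gene feature, AT5G19940, with a WT median of 0.0429. Its groups overlapped, with a lowest WT value of 0.0054 and a highest laf6 value of 0.0665. AT4G03150, AT1G72890 and AT1G49940 agreed on 11, and AT4G30150 was the first of 19 that agreed on 10. AT4G03150, at 0 on 5 laf6 arrays and with a WT median of 0.529, was on both lists. Over the 6 WT arrays the named features did not all follow the genes. Pearson r of log2 intensity with AT4G38040 ran from -0.18 (chr31) to 0.93 (AT2G06040). With AT3G57630 it ran from -0.80 (AT1G49940) to 0.81 (AT4G30150).

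Another gene of the exostosin family went the other way. AT1G34270, the single further gene of a list of 37 family members that had a feature of its own, was not used in the choice of the pair above. Its normalized intensity was 0.381, 0.297, 0.801, 0.347, 0.356 and 0.280 on laf6 replicates 1 to 6, against 0.268, 0.249, 0.155, 0.0966, 0.129 and 0.160 on WT replicates 1 to 6. Every laf6 array lay above every WT array, as in 8.52% of all features on this scale. As deposited the groups overlapped, and 4 of 6 laf6 arrays exceeded the highest WT array. Within WT, replicates 1 and 2 were the highest, and within laf6 replicate 3 stood apart. AT1G34270 rose in laf6 by 1.21 ± 0.31 on the log2 scale (SE, 6 arrays a group), a fold of 2.31, in limma's moderated test with Benjamini-Hochberg adjustment over all 3439 features (adjusted p = 0.0131; range over 22 alternatives 0.00932 to 0.0969). In that fit 12.4% of features were higher and 13.8% were lower in laf6.

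The call for AT1G34270 was lost with the values as deposited (log2 difference 0.77, adjusted p = 0.0737), where the median of all features stood at -0.45. It was also lost with adjacent replicate numbers averaged to 3 samples a group (1.21, adjusted p = 0.0969). Without laf6 replicate 3 the log2 difference was 0.99 (adjusted p = 0.0159). By rank on its own array AT1G34270 ran from the 57.4th to the 84.9th percentile in laf6 and from the 30.9th to the 56.1st in WT. Quantile normalization follows these ranks, so they restate the separation of the normalized values and are no separate support for it. The 3 exostosin-family genes measured here thus did not share a direction: the pair chosen for loss of signal was low or at 0 in laf6, and AT1G34270 was higher.

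Few other genes of the cell wall and of sugar transfer could be matched to a feature of their own. The lists were matched by gene identifier and by words in the gene symbols and synonyms, as no gene descriptions were used, so measured genes can be missing from them. Of 7 gene lists written for this report, 4 had no matched member with a feature of its own: extensins and their glycosylation, sugar nucleotide supply and transport, Golgi and secretory traffic, and markers of seed, pollen and root. The other 3 lists had 1 matched gene each. Of these 3 genes AT1G34270 rose, none fell and 2 did not pass, beside 12.4% of all features higher and 13.8% lower. Their median log2 difference of 1.21, against -0.02 over all features, is the value of AT1G34270 itself and shows no rise of the lists. UGT74D1, a UDP-sugar glycosyltransferase, had a log2 difference of 1.79 ± 1.13 (adjusted p = 0.295), with 1 laf6 array and 2 WT arrays at 0. CSLA01, of a cellulose synthase-like family, had one of -0.68 ± 0.95 (adjusted p = 0.662) and was at 0 on 3 laf6 arrays and on no WT array. Its direction depended on the floor: the difference was 0.08 with the floor at the 5th percentile and -0.17 with the offset, and it ran from -1.20 to -0.33 with 1 array left out. For neither does the missed threshold show equal levels, since the standard errors were close to 1 on the log2 scale.

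A further list of 6 enzymes of glycan and sugar metabolism was drawn from the gene names on the array, with earlier results of these data known. None of these rose, 1 fell and 5 did not pass, with a median log2 difference of 0.04. Over all features 12.4% were higher and 13.8% lower, so 1 call among 6 genes is no result about the list. CKS, at 0 on all 12 arrays, could not be called in either direction, but is counted among the 5 and in the median. GH9B16, of the glycosyl hydrolase family that holds plant endoglucanases, fell to a normalized intensity of 0.133 ± 0.0531 in laf6, against 0.287 ± 0.0440 in WT (SD, n = 6 each). Its log2 difference was -1.22 ± 0.29 in limma (adjusted p = 0.00825; range over alternatives 0.00256 to 0.0804). Every laf6 array lay below every WT array after normalization, as in 9.36% of features. The call was lost without replicates 1 and 2 of both groups (-1.17, adjusted p = 0.0804), an alternative added after seeing the data.

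The relatives of GH9B16 gave no calls. GH9B12 differed by 1.08 ± 0.74 on the log2 scale, but by 0.39 without WT replicate 3, on which it was at 0. GH9B11 differed by -0.45 ± 0.35, but by -0.15 without laf6 replicate 2. GH9B8 differed by 0.08 ± 0.39, with no settled sign (-0.12 to 0.32 with 1 array left out, and -0.37 with the values as deposited). ATSPS4F, which encodes a sucrose-phosphate synthase, had a signal on every array and differed by 0.19 ± 0.15 (-0.26 with the values as deposited). CKS, an enzyme that activates a sugar acid found in pectin and that the words of the sugar nucleotide list did not match, was listed at 0 on all 12 arrays.

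**Figure D4:**
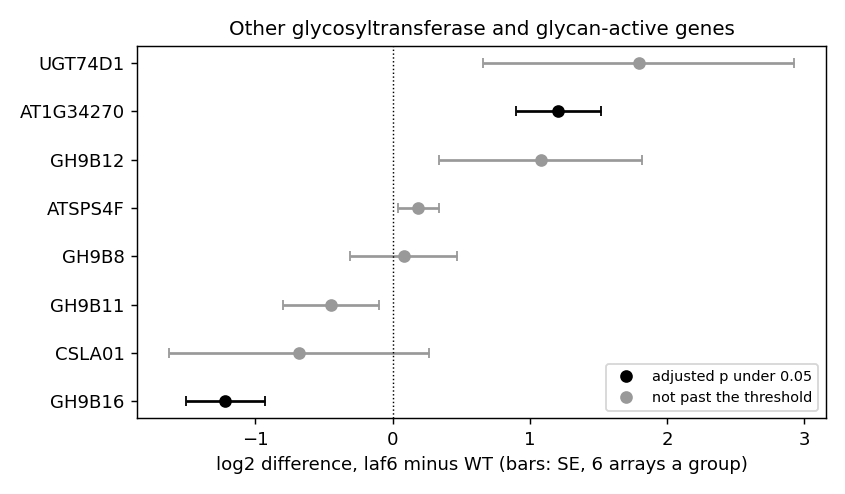
Log2 difference (laf6 minus WT, horizontal axis) of 8 further genes of glycosyl transfer and glycan metabolism, with bars for the standard error (6 arrays a group). Black points passed an adjusted p of 0.05 in limma and grey points did not. AT1G34270 lies at 1.21 and GH9B16 at -1.22.

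On chromosome 4, the gene 2 places before AT4G38040 in the RefSeq order, AT4G38020, had a feature of its own. It had a signal on all 12 arrays, with a median of 0.179 in laf6 and 0.311 in WT, and did not pass (log2 difference -0.53 ± 0.44, adjusted p = 0.436 in limma). No other gene within 2 places of AT4G38040, and none within 2 places of AT3G57630 on chromosome 3, was read by a single-gene feature.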

How the data were processed

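The authors deposited 1 intensity per feature and array on a linear scale. How the authors scanned, background-corrected and scaled the arrays is not given in the sources used. Features were named through a platform annotation and, by Entrez identifier, the RefSeq gene table of TAIR10.1, in which 691 of 692 single-gene features matched. Sequences were not analysed here.

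Array medians differed by up to 1.62 times, so values were quantile-normalized, floored at 0.00597 (1st percentile of the positive values, which deposited zeros also took) and converted to log2. limma 3.58.1 in R 4.3.3 (lmFit, eBayes) compared 6 laf6 with 6 WT arrays over 3439 features without covariates. P-values are two-sided and adjusted by Benjamini-Hochberg, threshold 0.05. The limma fit was tested on simulated log2 values. Normalization, the handling of zeros and the floor were not part of that test. No pair of arrays held identical values.

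The exostosin genes, lists and tests were chosen with earlier results of these data known. From each list, genes past the threshold were named, at most 4 in each direction, or the 2 with the smallest p. Likeness named up to 5 genes, ties ordered by correlation over WT arrays. The list of 6 enzymes was added after the gene names were seen, and all its members are given. Alternatives covered scaling, the floor, an offset, a filter, leaving out arrays, averaging adjacent replicates and a replicate block.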

Additional observations from a re-analysis of the deposited data

Results flagged for a closer look

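In 6 of 19 groups of 6 arrays looked at, 1 array lay far from the other 5. The rule singles out about 1 group in 20 by chance for normally distributed values only. That rate does not apply to groups with values at the floor, as for AT3G57630, AT4G38040 and GH9B12 below, so the count is not compared with it. The values below are on the log2 scale after normalization, with the floor at -7.39. AT3G57630 stood above the floor on laf6 replicate 5 (-4.65), while the other 5 laf6 arrays were at it, replicate 6 because its signal was below the floor. AT4G38040 was at the floor on WT replicate 2 (-7.39). AT1G34270 was high on laf6 replicate 3 (-0.32). GH9B11 was low on laf6 replicate 2 (-4.004), GH9B12 was at the floor on WT replicate 3 (-7.39) and GH9B8 was high on WT replicate 4 (-1.61).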

How the results depend on the processing

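The counts of arrays at 0 do not depend on scaling. Over the alternatives the median log2 intensity of AT4G38040 in WT ran from -2.41 to -1.94 (-2.41 to -2.13 with 1 array left out). It had no value where features at 0 on more than 6 arrays were left out. The difference of AT3G57630 ran from -4.32 to -4.07 with 1 array left out, and was -1.95 with a floor at the 5th percentile and -1.69 with the offset. The 428 higher and 473 lower features became 252 and 903 with unscaled values (median shift over all features -0.45), and 387 to 421 and 425 to 476 with 1 array left out. With adjacent replicate numbers averaged, 256 features were lower, with 3 samples a group in place of 6. Of the 3 genes from the planned lists, limma called 0 as deposited and 0 with adjacent numbers averaged, with 1 and 2 at an unadjusted p under 0.05 in these settings, and 1 with any array left out.

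Same-numbered arrays of the 2 groups deviated together with correlations of 0.0966 to 0.184, and every array correlated best with its own number, a hint from the data and not from the design. With the replicate number as a block, 414 features were higher and 458 lower, 1 list gene was called, the difference of AT3G57630 stayed at -4.22 and the WT median of AT4G38040 at -2.25. Precision is limited by having 6 arrays a group and, for AT4G38040 and AT3G57630, by laf6 values at or near the floor.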
